A study of Homo sapiens with 12 samples.

Results

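Among 26006 gene rows measured in LM2 breast cancer cells, 5 were examined here: FABP6, APOC1, NUDT8, NUP210 and the merged row CUZD1-FAM24B. They were picked for large falls in the libraries labelled ZRANB1 siRNA against the scramble siRNA libraries. Among 11571 tested genes other than small RNA and LOC symbols, they ranked 3 (FABP6), 4 (APOC1), 5 (NUDT8), 8 (NUP210) and 1 (CUZD1-FAM24B) by the size of that fall. Among all 11929 tested genes they ranked 44, 45, 47, 50 and 29, in the same order. All 5 stood at 7 to 20 FPKM with the scramble siRNA, and between 26.4% and 42.5% of that level in the ZRANB1 siRNA group. In both shRNA groups each mean was lower again, at no more than 2.19 FPKM. FPKM counts fragments relative to transcript length and library size, so levels of different genes can be compared per length.

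The study sequenced RNA from 12 libraries in 4 groups of 3. LM2 cells descend from MDA-MB-231, a human breast cancer line, through selection for spread to the lung. The groups were cells transduced with a short hairpin RNA (shRNA), either scramble or against EZH2, and cells transfected with a small interfering RNA (siRNA), either scramble or against ZRANB1. All were LM2 cells in DMEM with fetal bovine serum, penicillin and streptomycin. EZH2 is the histone methyltransferase of Polycomb repressive complex 2, and ZRANB1 removes ubiquitin from proteins. The labels name neither the RNA sequences nor the time of harvest, nor whether replicate libraries were grown separately. P-values therefore measured only the spread between these libraries, which may be technical.

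Within a group, each row with 3 different values lists them sorted as text, so a value cannot be assigned to a library. Values below are therefore given from lowest to highest, with no replicate number. The depth behind each value is unknown, since the table holds no counts. ZRANB1 stood at 11.4 ± 0.795 FPKM (SD, n = 3) with the scramble siRNA and 10.0 ± 1.31 FPKM in the group labelled ZRANB1 siRNA, a difference that limma did not call (adjusted p = 0.349). Every direction given below for that group refers to the libraries so labelled, whose own target was not shown to be lower. For EZH2, the scramble shRNA mean was 35.4 ± 1.07 FPKM and the EZH2 shRNA mean 16.5 ± 0.681 FPKM. In the siRNA groups EZH2 averaged 48.6 ± 2.097 FPKM (scramble) and 30.4 ± 2.08 FPKM (labelled ZRANB1), and these values did not overlap. All 12 listed MDA-MB-231 genes, such as VIM and CD44, were expressed, but several differed strongly between both controls. S100A4 averaged 406 FPKM under the shRNA control but 16.3 FPKM under the siRNA control. For TGFBI these means were 192 and 24.8 FPKM, for PLAUR 145 and 44.9 FPKM and for CD44 264 and 118 FPKM. AXL and CAV1 were instead higher under the siRNA control. CAV2 was nearly the same, at 26.4 ± 3.59 FPKM under the shRNA control and 26.7 ± 4.11 FPKM under the siRNA control. The cause of these differences was not tested. Of 8 genes listed as low in MDA-MB-231, 5 stayed below 1 FPKM in all groups, PGR being at 0 in each library. ERBB2, GATA3 and EPCAM did not stay below it.

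The 5 genes have unrelated products. FABP6 is the ileal bile acid binding protein, a small cytosolic carrier that enterocytes of the ileum use in the return of bile acids and a classical target of the bile acid receptor FXR. APOC1 is a small apolipoprotein of circulating lipoproteins, made mainly by liver and macrophages, and its gene lies beside APOE in a cluster that the oxysterol receptors LXR can activate. NUDT8 belongs to the Nudix hydrolases, enzymes that cleave nucleoside diphosphates linked to another group, and acts on coenzyme A in mitochondria. NUP210 is a transmembrane protein of the nuclear pore whose amount differs widely between cell types. CUZD1 is a membrane protein with CUB and zona pellucida-like domains that is best known from pancreatic acinar cells.

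The start regions of the genes are shown because the 5 were chosen for a like pattern of expression while their start sequences differ in kind. RefSeq windows of 300 bases (GRCh38.p14, 250 bases before to 50 after the start) were found for FABP6, APOC1, NUDT8, NUP210 and CUZD1, and for the read-through gene that RefSeq names FAM24B-CUZD1. That build is not the one of the deposited values. Capitals mark the TATA box letters TATAAA and the GC box letters GGGCGG, read on either strand. The window of FABP6 lies at chr5:160229256-160229555 on the plus strand, downstream of the most upstream start RefSeq lists for this gene. APOC1 lies at chr19:44914422-44914721 on the plus strand, NUDT8 at chr11:67629888-67630187 on the minus strand, NUP210 at chr3:13420273-13420572 on the minus strand and CUZD1 at chr10:122845808-122846107 on the minus strand.
FABP6: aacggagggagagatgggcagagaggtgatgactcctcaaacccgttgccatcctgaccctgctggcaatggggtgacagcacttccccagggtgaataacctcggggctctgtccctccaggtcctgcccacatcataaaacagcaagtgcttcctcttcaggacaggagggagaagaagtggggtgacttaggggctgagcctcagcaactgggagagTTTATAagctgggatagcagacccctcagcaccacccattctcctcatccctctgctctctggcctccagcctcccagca
APOC1: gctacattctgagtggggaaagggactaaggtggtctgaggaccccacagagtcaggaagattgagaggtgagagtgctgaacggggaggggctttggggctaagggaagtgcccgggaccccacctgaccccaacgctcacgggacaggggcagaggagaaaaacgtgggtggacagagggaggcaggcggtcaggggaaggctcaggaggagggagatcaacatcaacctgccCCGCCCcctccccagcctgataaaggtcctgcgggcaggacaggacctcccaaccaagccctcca
NUDT8: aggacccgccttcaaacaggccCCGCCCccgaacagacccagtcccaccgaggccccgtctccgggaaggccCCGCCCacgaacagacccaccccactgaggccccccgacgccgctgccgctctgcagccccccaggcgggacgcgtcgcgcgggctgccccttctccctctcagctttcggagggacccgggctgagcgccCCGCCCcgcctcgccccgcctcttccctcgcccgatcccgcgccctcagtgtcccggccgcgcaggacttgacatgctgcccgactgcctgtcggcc
NUP210: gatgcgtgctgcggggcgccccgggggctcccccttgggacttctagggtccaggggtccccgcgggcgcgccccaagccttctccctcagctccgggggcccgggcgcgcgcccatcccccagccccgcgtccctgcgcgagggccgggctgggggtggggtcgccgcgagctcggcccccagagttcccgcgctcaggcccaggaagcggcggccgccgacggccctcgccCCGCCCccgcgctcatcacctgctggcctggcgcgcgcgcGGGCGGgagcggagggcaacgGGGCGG
CUZD1: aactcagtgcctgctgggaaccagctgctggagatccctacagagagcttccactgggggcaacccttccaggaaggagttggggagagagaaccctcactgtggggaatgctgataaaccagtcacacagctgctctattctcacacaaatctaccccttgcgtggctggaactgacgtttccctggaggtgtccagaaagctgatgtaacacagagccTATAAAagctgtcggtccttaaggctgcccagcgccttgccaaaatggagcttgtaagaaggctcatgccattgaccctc

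The windows of NUDT8 and NUP210 were rich in CG dinucleotides, whereas those of FABP6, APOC1 and CUZD1 were not. NUP210 had 42 CG dinucleotides and 81.3% G or C, and NUDT8 had 34 and 75.3%. FABP6 had 3 and 57.7%, CUZD1 had 4 and 53.7%, and APOC1 had 8 and 62.3%, beside a median of 14 and 58.7% over 35114 RefSeq windows. The FAM24B-CUZD1 window, from which the read-through transcript would start, had 24 and 62%. TATAAA occurred once in FABP6 (on the opposite strand) and once in CUZD1, and in 11.5% of all windows. GGGCGG occurred 3 times each in NUDT8 and NUP210 and once each in APOC1 and FAM24B-CUZD1, and in 45% of all windows. The CCAAT box (CCAAT), the E-box (CACGTG) and the sterol regulatory element of the LDL receptor gene were searched on both strands and had no match in these 6 windows. They occurred in 34.6%, 7.26% and 0.0456% of all windows. None of the motifs searched was shared by all 5 genes.

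The siRNA groups are described first, without a test, because the genes were chosen on this contrast. The scramble siRNA mean of each gene was the highest of the 4 and the ZRANB1 siRNA mean came next, as for 30.8% of tested genes. FABP6 was measured at 5.91, 6.44 and 8.54 FPKM with the scramble siRNA and at 1.41, 2.46 and 3.32 FPKM with the ZRANB1 siRNA. The scramble values were all higher, and the ZRANB1 siRNA mean was 34.5% ± 15.4 of theirs (SD by error propagation). The ZRANB1 siRNA values of FABP6 were widely spread for their level.

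APOC1 was measured at 17.8, 21.1 and 21.2 FPKM with the scramble siRNA and at 6.67, 6.97 and 11.03 FPKM with the ZRANB1 siRNA. The groups did not overlap, and the ZRANB1 siRNA mean was 41.1% ± 12.8 of the scramble mean, with 1 of its 3 values standing well above the others. APOC1P1, a pseudogene copy that can share reads with APOC1, never exceeded 0.493 FPKM.

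NUDT8 was measured at 8.45, 10.5 and 10.7 FPKM with the scramble siRNA and at 3.16, 3.93 and 4.17 FPKM with the ZRANB1 siRNA, 37.9% ± 7.19 of the scramble mean. The spread within each siRNA group was small beside the gap between them. NUP210 was measured at 12.5, 13.3 and 13.4 FPKM and at 4.98, 5.57 and 6.10 FPKM, 42.5% ± 4.61 of the scramble mean. Its paralog NUP210L never exceeded 0.0302 FPKM.

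CUZD1-FAM24B was measured at 16.1, 17.9 and 19.3 FPKM with the scramble siRNA and at 4.05, 4.74 and 5.29 FPKM with the ZRANB1 siRNA. Its ZRANB1 siRNA mean was 26.4% ± 4.24 of the scramble mean, the lowest of the 5. The table holds no row for CUZD1 or for FAM24B alone, so the value cannot be divided between the 2 genes and their read-through transcript, and FAM24A, the next gene at the locus, was at 0 in all libraries. The strand setting of the counting is not given in the sources used here, so overlapping antisense transcripts cannot be told apart from any of these genes.

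**Figure D1:**
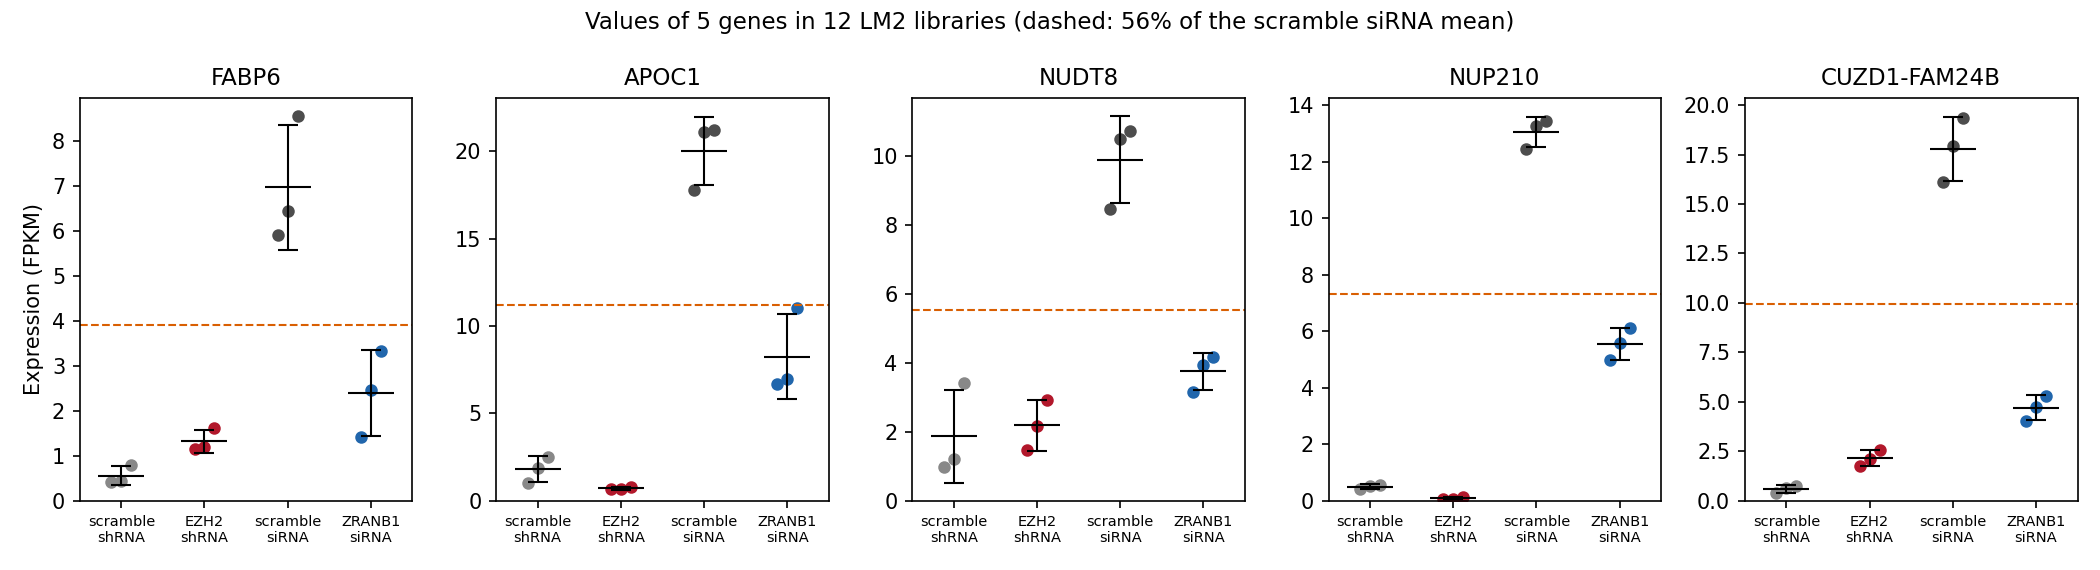
Expression (FPKM, linear axes from 0) of the 5 genes in 4 groups of 3 LM2 libraries; points are libraries, wide bars are means and capped lines the SD, and the dashed line marks 56% of the scramble siRNA mean. In each panel the 3 ZRANB1 siRNA values lie below the dashed line, for APOC1 narrowly at its highest value of 11.03 FPKM, and both shRNA groups lie lower still or next to them.

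On the scale of log2(FPKM + 1), the fitted differences between the siRNA groups were -1.25 for FABP6, -1.22 for APOC1, -1.20 for NUDT8, -1.10 for NUP210 and -1.73 for CUZD1-FAM24B. In this comparison limma called 16.6% of 11929 tested genes (10.1% higher and 6.5% lower), and 18% had all 3 ZRANB1 siRNA values below all 3 scramble siRNA values. Nothing is read from these shares for the 5 genes, since this contrast chose them. With small RNA and LOC symbols left out, SOCS2-AS1 at rank 2 (-1.30) and the semaphorin gene SEMA3B at rank 6 (-1.16) were ranked next to them. So were the inhibin subunit gene INHBB at rank 7 (-1.11) and the cell polarity gene LLGL2 at rank 9 (-1.07).

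A level of 56% of the scramble siRNA mean was used as a reference. It is what a mixture of 56% scramble siRNA RNA and 44% of RNA without the transcript would have, and so the lowest level such a mixture can give. The 56% was taken as given. Least squares over all tested genes gave 52.5% scramble siRNA with the EZH2 shRNA as the other component, and 59.2% with the scramble shRNA. The level at 56% was 3.9 FPKM for FABP6, 11.2 FPKM for APOC1, 5.54 FPKM for NUDT8, 7.31 FPKM for NUP210 and 9.97 FPKM for CUZD1-FAM24B. All 3 ZRANB1 siRNA values of each gene were below it. Of all tested genes, 0.939% had a ZRANB1 siRNA mean below 56% of the scramble siRNA mean (112 genes), and 66 of these were left without small RNA and LOC symbols. A stricter form asks that the highest ZRANB1 siRNA value lie under 56% of the lowest scramble siRNA value, which 0.117% of tested genes met (14 genes). NUDT8, NUP210 and CUZD1-FAM24B met it. FABP6, with 3.32 against 3.31 FPKM, and APOC1, with 11.03 against 9.96 FPKM, did not. The genes were chosen for large falls in this same contrast, which favours such low levels by construction. Nothing is therefore read for them from these shares or from their place below the reference.

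The EZH2 shRNA group would add some transcript to such a mixture. With 44% EZH2 shRNA, the mixture would hold 4.48 FPKM of FABP6, where 2.40 ± 0.956 FPKM was measured in the ZRANB1 siRNA group. For APOC1 it would hold 11.5 FPKM against 8.23 ± 2.44 FPKM measured, and for NUDT8 6.51 FPKM against 3.75 ± 0.528 FPKM. For NUP210 it would hold 7.35 FPKM against 5.55 ± 0.559 FPKM, and for CUZD1-FAM24B 10.9 FPKM against 4.69 ± 0.623 FPKM. The measured means were thus 0.43 to 0.755 times the mixture value, which the choice of large falls favours by construction. Over all tested genes, 56.5% had a ZRANB1 siRNA mean below that mixture value. The share of EZH2 shRNA that came closest to the ZRANB1 siRNA group over all tested genes was 47.5%, by least squares on log2(FPKM + 1). At that share the values were 4.28, 10.9, 6.24, 6.90 and 10.4 FPKM, in the same order of genes, and remained above each measured mean. The highest ZRANB1 siRNA value of APOC1, 11.03 FPKM, passed its 10.9 FPKM.

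Placed between the scramble siRNA mean and the EZH2 shRNA mean, the ZRANB1 siRNA mean lay 80.8% of the way down for FABP6, 79.7% for NUDT8 and 83.7% for CUZD1-FAM24B. It lay 61.1% of the way down for APOC1 and 57.9% for NUP210. Toward the scramble shRNA mean instead, it lay 71.1% of the way for FABP6, 64.7% for APOC1, 76.5% for NUDT8, 59.7% for NUP210 and 76.1% for CUZD1-FAM24B. These positions use the contrast that chose the genes and are a description. A ZRANB1 siRNA mean between the scramble siRNA and the EZH2 shRNA was found for all 5 and for 72.3% of tested genes.

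A group of genes with a like shape was taken for comparison after their values were seen: at least 5 FPKM with the scramble siRNA and at least 4 times the mean of either shRNA group, small RNA and LOC symbols left out. It held 49 genes, the 5 among them. Their ZRANB1 siRNA means had a median of 57.1% of the scramble siRNA mean, with quartiles of 49% and 62.9%, and 21 of the 49 lay below 56%. CUZD1-FAM24B was the lowest of the 49, and FABP6, NUDT8, APOC1 and NUP210 were at places 3, 4, 6 and 7 from the bottom. The genes in between were SOCS2-AS1 at 30.6% and INHBB at 37.9%, and the next above NUP210 was the cytokine signalling inhibitor gene SOCS2 at 48.1%. No test was made, since the choice of the 5 genes fixed their place.

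**Figure D2:**
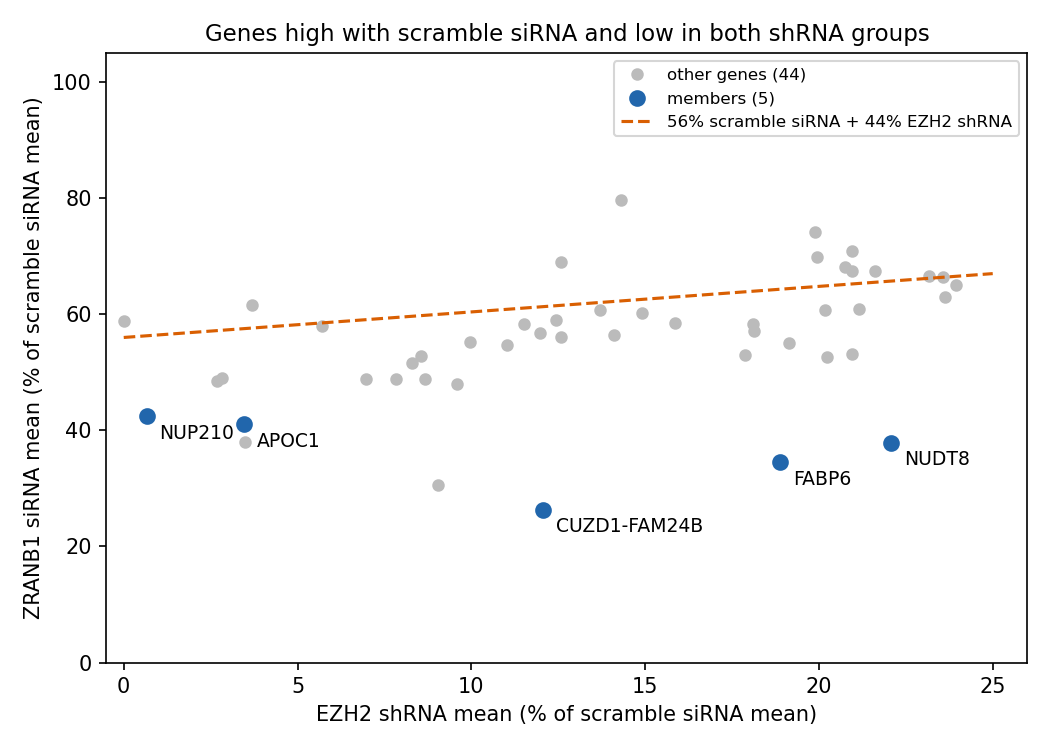
ZRANB1 siRNA mean against EZH2 shRNA mean, both in percent of the scramble siRNA mean (linear axes), for 49 genes that were high with the scramble siRNA and low in both shRNA groups; the dashed line is the mixture of 56% scramble siRNA and 44% EZH2 shRNA. The 5 members lie between 26.4% and 42.5%, under the line, with NUP210 and APOC1 at the left and CUZD1-FAM24B, FABP6 and NUDT8 further right.

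The shRNA groups held much less of each transcript. FABP6 was measured at 0.415, 0.436 and 0.797 FPKM with the scramble shRNA, so the scramble siRNA mean was 12.7 times the scramble shRNA mean. The same ratio was 11.2 for APOC1, 5.32 for NUDT8, 26.6 for NUP210 and 30.4 for CUZD1-FAM24B. Fitted differences between the scramble siRNA and scramble shRNA groups on the log2(FPKM + 1) scale were 2.36 for FABP6, 2.95 for APOC1, 2.02 for NUDT8, 3.24 for NUP210 and 3.57 for CUZD1-FAM24B. These share the scramble siRNA libraries with the contrast that chose the genes, so they are a description, and between both scramble groups limma called 50.6% of tested genes, 25.5% being higher with the siRNA. All 5 had their 3 scramble siRNA values above the 3 scramble shRNA values, as did 30.8% of tested genes. All 5 passed the filter, a mean of 1 FPKM over the 12 libraries, but FABP6, NUP210 and CUZD1-FAM24B had scramble shRNA means under 1 FPKM.

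The order of the groups was not the same for each gene. For FABP6, NUDT8 and CUZD1-FAM24B the means ran upward from scramble shRNA through EZH2 shRNA and ZRANB1 siRNA to scramble siRNA. For APOC1 and NUP210 the EZH2 shRNA group was the lowest and the scramble shRNA group came next. Neighbouring groups overlapped in 2 cases: FABP6 between the EZH2 shRNA and ZRANB1 siRNA groups, and NUDT8 between both shRNA groups. The highest scramble shRNA value of NUDT8, 3.40 FPKM, also passed its lowest ZRANB1 siRNA value, 3.16 FPKM. NUP210 in the ZRANB1 siRNA group was still 11.3 times its scramble shRNA level and APOC1 was 4.6 times it, against 2.02 times for NUDT8.

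The effect of the EZH2 shRNA could be tested, since neither shRNA group had a part in the choice of the genes. FABP6 and NUP210, however, averaged below 1 FPKM over both shRNA groups and were tested only because their siRNA values carried them past the filter. The test results of these 2 genes are therefore given as a description only. CUZD1-FAM24B was called higher, while APOC1, FABP6 and NUDT8 did not pass the test. Limma on log2(FPKM + 1) called 6.41% of 11929 genes in this comparison (3.39% higher and 3.03% lower), with Benjamini-Hochberg adjustment over all of them. Of the 5 genes, 2 were called, CUZD1-FAM24B higher and NUP210 lower, and nothing is read from the call of NUP210.

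CUZD1-FAM24B was measured at 0.356, 0.648 and 0.751 FPKM with the scramble shRNA and at 1.75, 2.12 and 2.58 FPKM with the EZH2 shRNA. Every EZH2 shRNA value was higher, and the mean was 3.67 times the control mean. Limma gave a log2 fold change of 0.99 ± 0.13 (standard error) at an adjusted p of 0.00137. Since the gene is low here, the fold change grew to 1.75 with a pseudocount of 0.1.

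NUP210 was measured at 0.400, 0.517 and 0.556 FPKM with the scramble shRNA and at 0.063, 0.0697 and 0.129 FPKM with the EZH2 shRNA. The EZH2 shRNA values were all lower, and the control mean was 5.63 times the EZH2 shRNA mean. Both levels are below 1 FPKM, and the log2 fold change of (FPKM + 1) was -0.45 ± 0.089 (standard error) at an adjusted p of 0.0123 by limma. With a pseudocount of 0.1 it was -1.67.

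APOC1 was measured at 1.01, 1.86 and 2.50 FPKM with the scramble shRNA and at 0.635, 0.685 and 0.759 FPKM with the EZH2 shRNA. The groups did not overlap, with a log2 fold change of -0.68 (95% interval -1.13 to -0.24) and an adjusted p of 0.0725 by limma. With a pseudocount of 0.1 the adjusted p was 0.0251, and without 1 of the scramble shRNA values it was 0.0265.

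FABP6 was measured at 1.15, 1.19 and 1.60 FPKM with the EZH2 shRNA, all above the scramble shRNA values. Its log2 fold change was 0.58 (95% interval 0.14 to 1.03), with an adjusted p of 0.12 by limma and 0.0436 with a pseudocount of 0.1. NUDT8 was measured at 0.969, 1.21 and 3.40 FPKM with the scramble shRNA and at 1.46, 2.17 and 2.93 FPKM with the EZH2 shRNA. These groups overlapped, and its log2 fold change of 0.23 had a 95% interval of -0.36 to 0.81 and an adjusted p of 0.692 by limma.

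Of all tested genes, 10.6% had 3 EZH2 shRNA values above the 3 control values and 11.6% had them below. FABP6 and CUZD1-FAM24B were of the former kind and APOC1 and NUP210 of the latter. The exact permutation test (two-sided), whose smallest possible p is 0.1 in this design, gave p = 0.1 for FABP6, APOC1, NUP210 and CUZD1-FAM24B and 0.7 for NUDT8.

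**Figure D3:**
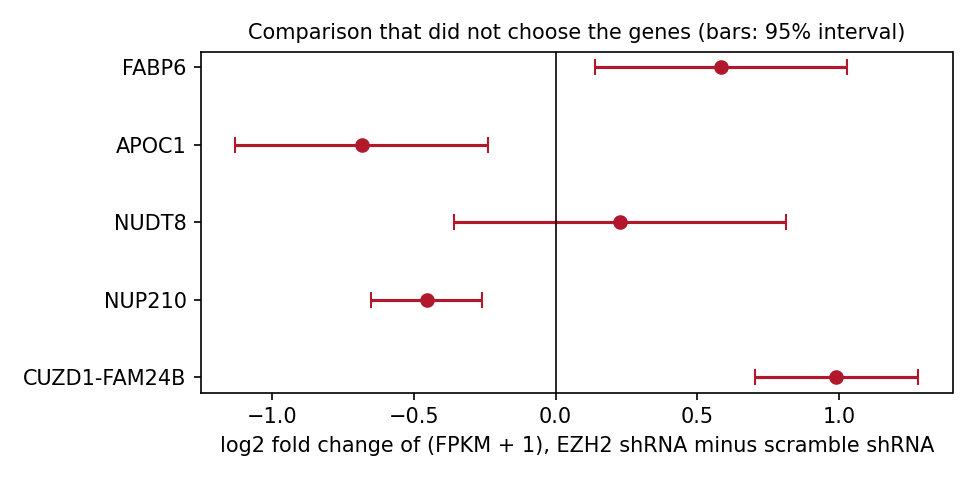
Log2 fold change of (FPKM + 1) between the EZH2 shRNA and scramble shRNA groups (3 libraries each) for the 5 genes, with 95% intervals from limma as bars. CUZD1-FAM24B at 0.99 and FABP6 at 0.58 lie right of 0, APOC1 at -0.68 and NUP210 at -0.45 left of it, and the interval of NUDT8 spans 0.

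Likeness of pattern was measured as the Euclidean distance between the 4 group means of log2(FPKM + 1), each gene centred on its own mean, over 11929 tested genes. Lower values mean more alike, in log2 units. The gene nearest to FABP6 was NUDT8, at 0.29, and the gene nearest to APOC1 was NUP210, also at 0.29. After these, FABP6 was nearest to VSTM1 (0.34) and SOCS2-AS1 (0.37), and NUDT8 to VSTM1 (0.19), before FABP6, and to ITGBL1 (0.33). DBNDD1 was also near to APOC1 (0.50) and to NUP210 (0.47). CUZD1-FAM24B had no neighbour so close: SOCS2-AS1 was at 0.60, the small RNA SNORA13 at 0.71 and the endothelial lipase gene LIPG at 0.80. The distance takes no account of the spread within a group, which was wide for SNORA13 and VSTM1. SNORA13 was at 14.2 ± 12.6 FPKM with the scramble siRNA and 4.77 ± 8.26 FPKM with the ZRANB1 siRNA. VSTM1 was at 3.24 ± 1.74 FPKM with the scramble siRNA.

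The relatives of each gene were then examined, from lists of its family and pathway. They were counted without the 5 genes, so that the siRNA comparison could be tested for them. List medians with the ZRANB1 siRNA ran from -0.33 to 0.076 on the log2(FPKM + 1) scale. The medians over all tested genes were -0.014 with the EZH2 shRNA and -0.017 with the ZRANB1 siRNA. The test of the difference between both effects called 10.5% of tested genes, 6.91% with the higher value for the ZRANB1 siRNA and 3.58% with the lower. The counts of each list stand beside the shares of all tested genes called, which were 10.1% higher and 6.5% lower with the ZRANB1 siRNA and 3.39% higher and 3.03% lower with the EZH2 shRNA. With lists this short, counts of 1 to 3 genes are not read as a result about a list. Counts of negative differences and of unadjusted p under 0.05 have no share over all tested genes beside them, so nothing is read from them.

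Of the fatty acid, retinol and retinoic acid binding protein genes related to FABP6, 13 of 15 stayed below 1 FPKM in all groups. The 2 tested were the epidermal fatty acid binding protein gene FABP5, at 137 ± 8.35 FPKM with the scramble siRNA and 123 ± 4.25 FPKM with the ZRANB1 siRNA, and the retinoic acid carrier gene CRABP2, at 5.88 ± 1.26 and 3.88 ± 0.861 FPKM. Limma called 0 of 2 in either comparison, with 1 (CRABP2, adjusted p = 0.0571) at an unadjusted p under 0.05 with the ZRANB1 siRNA and 0 with the EZH2 shRNA. Per length, FABP5 was thus by far the more abundant carrier even where FABP6 was highest.

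Bile acid genes were mostly silent, 15 of 20 being below 1 FPKM in all groups. Of 5 tested, 1 rose with the ZRANB1 siRNA and 1 fell with the EZH2 shRNA, and both were the export pump gene ABCC3. It went from 2.81 ± 0.176 to 6.35 ± 0.703 FPKM with the ZRANB1 siRNA (log2 fold change 0.95, adjusted p = 2.83e-05 by limma). With the EZH2 shRNA it went from 13.3 ± 1.13 to 8.20 ± 0.537 FPKM (-0.64, adjusted p = 0.00203). The uptake transporter gene SLCO1B3 was the highest, at 15.8 ± 2.47 and 13.9 ± 2.50 FPKM in the siRNA groups, and was not called.

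Of 9 apolipoprotein genes tested, 3 rose and 1 fell with the ZRANB1 siRNA, beside 10.1% and 6.5% of all tested genes. With the EZH2 shRNA 1 rose and 2 fell, beside 3.39% and 3.03%. APOL6 went from 2.28 ± 0.273 to 4.10 ± 0.371 FPKM and APOL1, an intracellular and serum apolipoprotein, from 1.04 ± 0.128 to 2.04 ± 0.129 FPKM with the ZRANB1 siRNA. APOOL, a mitochondrial inner membrane protein gene, rose in both comparisons, from 3.33 ± 0.608 to 5.32 ± 0.879 FPKM in the siRNA groups and from 6.03 ± 1.08 to 9.28 ± 1.16 FPKM in the shRNA groups, the latter a call lost without the filter on low values. The chaperone gene CLU was the one that fell, from 6.57 ± 0.692 to 4.46 ± 0.909 FPKM (log2 fold change -0.48, adjusted p = 0.0216 by limma), a call lost with the 6 siRNA values alone. With the EZH2 shRNA, APOL1 went from 5.24 ± 0.149 to 3.39 ± 0.535 FPKM and APOL3 from 2.29 ± 0.232 to 1.31 ± 0.260 FPKM. These 2 calls were lost with the 6 shRNA values alone. The highest members by level, APOO and APOL2, were not called in either comparison.

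LXR genes and genes that LXR can activate were called lower in 4 of 12 cases and higher in 1 with the ZRANB1 siRNA, beside 6.5% lower and 10.1% higher among all tested genes. The other 7 were not called. The stearoyl-CoA desaturase gene SCD went from 225 ± 13.0 to 109.9 ± 5.43 FPKM (log2 fold change -1.03, adjusted p = 1.53e-06 by limma). The phospholipid remodelling gene LPCAT3 went from 27.5 ± 0.773 to 17.6 ± 0.987 FPKM, the lipogenic regulator gene SREBF1 from 47.9 ± 4.93 to 28.3 ± 3.83 FPKM and the fatty acid synthase gene FASN from 168 ± 25.8 to 101 ± 15.5 FPKM. With the scramble shRNA, SCD was at 11.1 ± 0.695, LPCAT3 at 10.4 ± 0.0956, SREBF1 at 17.7 ± 1.77 and FASN at 43.9 ± 6.40 FPKM. The cholesterol export pump gene ABCA1 rose instead, from 1.08 ± 0.127 to 1.84 ± 0.0474 FPKM, and with the EZH2 shRNA it rose from 0.916 ± 0.162 to 1.93 ± 0.252 FPKM. SCD also rose with the EZH2 shRNA, to 17.7 ± 0.213 FPKM, so 2 of 12 were higher there and 0 lower by limma, with 3 at an unadjusted p under 0.05.

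Nudix hydrolases other than NUDT8 were not called in either comparison. Limma called 0 of 17 with the ZRANB1 siRNA and 0 of 17 with the EZH2 shRNA, with 1 and 3 at an unadjusted p under 0.05. Their medians were -0.15 and 0.0033, and 13 of 17 had a negative difference with the ZRANB1 siRNA, a count not read as a result. The most abundant, the ADP-ribose hydrolase gene NUDT5, was at 84.1 ± 5.62 and 91.9 ± 2.37 FPKM in the scramble and ZRANB1 siRNA groups, and the RNA 3' processing factor gene NUDT21 at 49.8 ± 6.05 and 44.7 ± 6.13 FPKM. Among 11 genes of coenzyme A synthesis and breakdown, pantothenate kinase genes were the ones called. PANK2 rose with the ZRANB1 siRNA from 17.0 ± 1.14 to 22.8 ± 1.93 FPKM, and PANK3 rose with the EZH2 shRNA from 11.8 ± 1.69 to 18.1 ± 2.24 FPKM, a call lost with the 6 shRNA values alone. NUDT19, another coenzyme A hydrolase gene, was at 26.6 ± 2.32 and 25.2 ± 1.39 FPKM in the siRNA groups and was not called, nor was the synthase gene COASY at 36.0 ± 3.35 and 36.3 ± 3.81 FPKM.

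Of 30 nucleoporin genes tested other than NUP210, 2 fell and 0 rose with the ZRANB1 siRNA, a share close to the 6.5% of all tested genes that fell. Their median was -0.17, and 23 had a negative difference. At an unadjusted p under 0.05 there were 10. Without the shares over all tested genes, neither count is read as a shift of the family. The mRNA export factor gene RAE1 went from 52.7 ± 1.20 to 44.1 ± 2.33 FPKM (log2 fold change -0.25, adjusted p = 0.0167 by limma), and NUP85, a part of the pore's outer scaffold, from 47.8 ± 2.75 to 40.1 ± 0.403 FPKM (-0.25, adjusted p = 0.0187). With the EZH2 shRNA, 1 of 30 fell, the central channel gene NUP54, from 29.5 ± 2.79 to 19.96 ± 3.29 FPKM, a call lost with the 6 shRNA values alone. SEC13, the most abundant, was at 116 ± 11.5 and 106 ± 11.1 FPKM in the siRNA groups and was not called. Among 30 transport receptor and Ran cycle genes, 3 fell with the ZRANB1 siRNA, beside 6.5% of all tested genes, among them the transport GTPase gene RAN, from 983 ± 41.1 to 763 ± 35.5 FPKM (-0.36, adjusted p = 8.21e-04 by limma). The others were XPO7, from 26.5 ± 1.21 to 21.8 ± 1.35 FPKM, and IPO9, from 19.3 ± 0.702 to 16.1 ± 0.816 FPKM, and the count was 1 with the 6 siRNA values alone. The importin gene KPNA2, at 297 ± 10.9 and 259 ± 11.2 FPKM, was not called. With the EZH2 shRNA the Ran importer gene NUTF2 fell, from 184 ± 15.2 to 134 ± 25.2 FPKM, a call that did not hold without the filter on low values or with the 6 shRNA values alone.

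**Figure D4:**
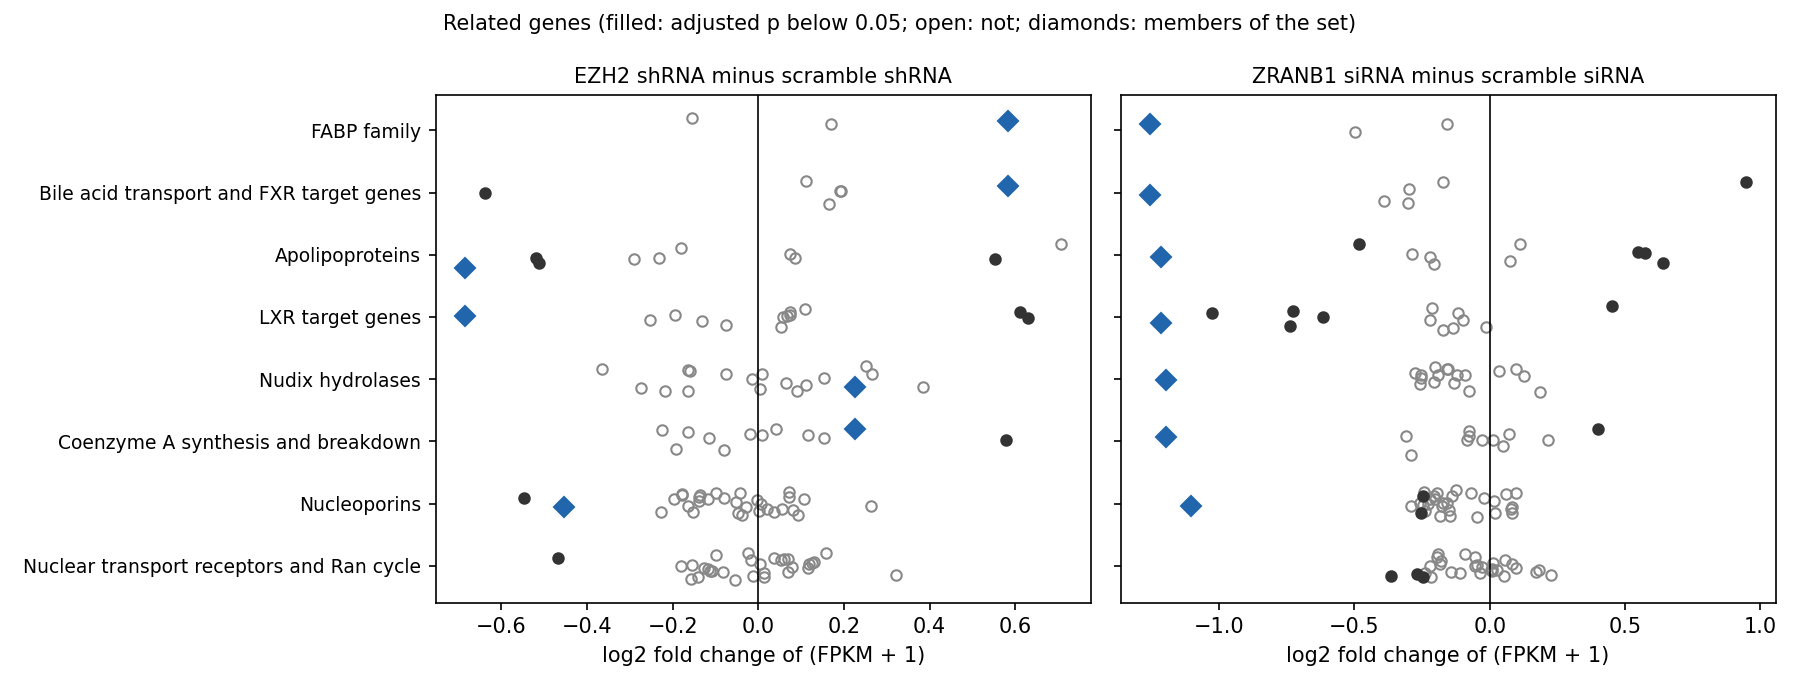
Log2 fold changes of (FPKM + 1) for tested genes of 8 related lists with the EZH2 shRNA (left) and the ZRANB1 siRNA (right); filled circles passed an adjusted p of 0.05, open circles did not, and diamonds are 4 of the 5 genes, chosen on the contrast of the right panel. There the diamonds lie left of all other genes of their lists, from NUP210 at -1.10 to FABP6 at -1.25.

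Neighbouring genes on the chromosomes, taken as the 2 nearest protein-coding genes with a row on either side in the RefSeq order, numbered 20, of which 14 were tested. With the ZRANB1 siRNA 1 fell and 1 rose, beside 16.6% of all tested genes called, and with the EZH2 shRNA 2 rose and 0 fell, beside 6.41%. CCNJL, next to FABP6, went from 21.3 ± 0.764 to 18.5 ± 0.458 FPKM (log2 fold change -0.19, adjusted p = 0.0451 by limma) and rose with the EZH2 shRNA (0.25, adjusted p = 0.0313), whereas RELB, an NF-kB subunit gene near APOC1, went from 4.04 ± 0.328 to 11.8 ± 2.58 FPKM (1.33, adjusted p = 1.11e-04). APOE, directly beside APOC1, was at 1.55 ± 0.562 and 1.18 ± 0.464 FPKM in the siRNA groups and at 1.39 ± 0.545 and 1.48 ± 0.308 FPKM with the scramble and EZH2 shRNA. Its group means thus ran from 1.18 to 1.55 FPKM, where APOC1 ranged from 0.693 to 20.04 FPKM in group means. TOMM40, on the other side of APOE, was at 154 ± 22.3 and 135 ± 14.6 FPKM in the siRNA groups. Next to NUP210, HDAC11 was at 6.93 ± 1.14 and 4.63 ± 0.571 FPKM (adjusted p = 0.0825 by limma) and IQSEC1 at 12.4 ± 0.854 and 10.3 ± 0.706 FPKM (adjusted p = 0.0627). NDUFV1 and GSTP1, near NUDT8, were at 97.7 ± 11.6 and 88.0 ± 11.7 FPKM and at 213 ± 18.8 and 191 ± 25.1 FPKM, and neither was called. Near CUZD1-FAM24B, the mucin-like gene DMBT1 rose with the EZH2 shRNA, from 3.23 ± 0.0985 to 7.69 ± 0.583 FPKM (1.04, adjusted p = 2.99e-05 by limma), and was not called with the ZRANB1 siRNA.

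Ileal and pancreatic acinar markers were at or near 0, whereas the hepatocyte and macrophage lists each held 2 genes above 1 FPKM. Of 12 ileal enterocyte markers, 12 stayed below 1 FPKM in all groups and 9 were at 0 in all libraries, among them the intestinal regulator genes CDX1 and CDX2 and VIL1. Their summed group means were 0.0508, 0.0822, 0.431 and 0.357 FPKM, in the order scramble shRNA, EZH2 shRNA, then scramble and ZRANB1 siRNA, as for the sums that follow. Of 12 pancreatic acinar markers, 12 stayed below 1 FPKM, 9 of them at 0, with sums of 0.744, 0.539, 0.504 and 0.575 FPKM. Hepatocyte markers summed to 13.7, 10.6, 0.518 and 4.29 FPKM, most of it the protease inhibitor gene SERPINA1 (11.8, 8.84, 0.298 and 3.499 FPKM), and 10 of 12 stayed below 1 FPKM, with APOA2, TTR, FGA and HNF4A at 0. Macrophage markers summed to 39.6, 39.7, 41.1 and 43.1 FPKM, most of it the lysosomal gene CD68 (34.4, 35.6, 40.2 and 41.7 FPKM), and 10 of 12 stayed below 1 FPKM, with TYROBP at 0. CD14, the other gene to pass 1 FPKM, stood at 3.90, 2.87, 0.243 and 0.867 FPKM. The part of such cells in the results was not tested. Sums are given as group means because a column did not follow 1 library. Fewer cells with a transcript and less of it per cell cannot be told apart in such bulk samples.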

How the data were processed

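RNA was sequenced from 12 LM2 libraries, 3 in each of 4 groups taken from the labels. The unit is FPKM, in a single table of 26006 rows that the authors deposited. Per the submitters' processing notes, the tools were Cufflinks 2.2.1, Cuffdiff 2.2.1, TopHat2 2.1.1 and SAMtools, with hg19. Not given in the sources used here are options, annotation, strand setting and scaling. The unit divides by library size, so abundant genes lower the values of others. Of rows with the same symbol the one with the highest mean was kept, and 27 rows whose symbols had become dates were not merged. Tests used 11929 genes averaging 1 FPKM or more, on log2(FPKM + 1), a scale that understates the change of low genes. Limma 3.58.1 in R 4.3.3 fitted the 4 groups together with a variance trend, and calls used Benjamini-Hochberg adjustment over all tested genes at a threshold of 0.05. Precision is limited by 3 values per group of unknown depth.

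The 5 genes and the lists were chosen with earlier results of these data known. The contrast of the siRNA groups chose the 5 genes and was not tested for them. Other genes were named by rule: up to 4 called members of a list per comparison by adjusted p and the 2 highest by level, all of a list with few tested, chromosomal neighbours, the 3 genes most alike in pattern, and genes ranked next to the members. A gene that this rule named is not reported here. Small RNA and LOC symbols were left out of ranks, except where ranks among all tested genes are named. Symbols matched RefSeq tables of GRCh38.p14, another build, used for names, gene order and start sequences. The alternatives comprised a mixture with the scramble shRNA as the other component or with a fitted share, scaling by group, summed rows, group medians, no variance trend, the 6 compared values alone, other filters (none, or 5 FPKM), a pseudocount of 0.1, and each value left out in turn, in a random order drawn per gene. Figures were drawn with matplotlib 3.10.9.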

Additional observations from a re-analysis of the deposited data

Results flagged for a closer look

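Of 127 tested genes that were listed as relatives of the 5 or lie next to them, 12 (9.45%) had effects that differed between the ZRANB1 siRNA and EZH2 shRNA comparisons by limma's test of the difference, at an adjusted p below 0.05; of all tested genes 10.5% did. The differences below are the log2 fold change with the ZRANB1 siRNA minus that with the EZH2 shRNA. Each comparison starts from its own control, and SCD averaged 225 FPKM with the scramble siRNA and 11.1 FPKM with the scramble shRNA. ABCC3 averaged 2.81 and 13.3 FPKM and APOL1 1.04 and 5.24 FPKM, whereas DMBT1 averaged 3.72 and 3.23 FPKM. The part of these control levels in the differences was not tested. Lipid genes had the negative differences SCD (-1.66), LPCAT3 (-0.67) and SREBF1 (-0.80), and the pantothenate kinase gene PANK3 had -0.87. The bile acid and drug pump gene ABCC3 stood at 1.59, the most positive of the 12. Among apolipoprotein genes the difference was 1.09 for APOL1, 0.55 for APOL6 and 0.63 for APOL3. The Nudix hydrolase gene NUDT9 had 0.55, although it was called in neither comparison alone (adjusted p = 0.269 and 0.0604 by limma). Among neighbours it was -0.88 for DMBT1, -0.44 for CCNJL and 0.99 for RELB. The 5 genes themselves were left out, since the siRNA contrast chose them.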

How the results depend on the processing

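In the EZH2 shRNA comparison no alternative turned the direction of any of the 5 genes (62 values). NUP210 and CUZD1-FAM24B stayed below an adjusted p of 0.05 in all that could be run for them, with ranges up to 0.045 and 0.0282. For NUP210 nothing is read from this, since its siRNA values carried it past the main filter. With a pseudocount of 0.1, FABP6 (log2 fold change 1.16, adjusted p = 0.0436 by limma) and APOC1 (-1.17, adjusted p = 0.0251) passed it; over all alternatives the adjusted p spanned 0.0436 to 0.265 for FABP6 and 0.0251 to 0.227 for APOC1. Leaving out 1 value after a random order, APOC1 ran from -0.90 to -0.50, FABP6 from 0.50 to 0.69 and NUDT8 from 0.0046 to 0.59. FABP6, NUDT8 and NUP210 had a mean below 5 FPKM, so the filter at 5 FPKM gave no value for them. The ZRANB1 siRNA mean in percent of the scramble siRNA mean moved by less than its SD in each of 45 alternative values. Without 1 value it ran from 27.9% to 41.6% for FABP6, 34.0% to 44.9% for APOC1, 35.3% to 40.9% for NUDT8, 40.4% to 44.7% for NUP210 and 24.7% to 28.2% for CUZD1-FAM24B.

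Counts of called genes moved more. With the EZH2 shRNA, 404 genes were higher and 361 lower; with a filter at 5 FPKM 260 were higher, and with the 6 shRNA values alone 104 were higher and 81 lower. Without 1 value the counts ran from 216 to 308 and from 190 to 297. With the ZRANB1 siRNA, 1210 were higher and 775 lower, and without 1 value 930 to 961 and 447 to 505. Of the listed genes 5 were lower with the EZH2 shRNA, and 1 with the 6 shRNA values alone. These settings tested fewer genes or fewer values. No paired analysis was possible because the values of a group stand in text order, so that a column does not follow 1 library and its number names no replicate; the planned fit with a replicate block was not run. Depth per library is unknown and sets a limit on low values such as those of NUP210 in the shRNA groups.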
